A study of Drosophila melanogaster with 2 samples.

Results

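Among the binding sites mapped for the Drosophila protein Su(var)2-10, the regions described here are the reproducible peaks at promoters whose annotated start sites all point the same way. A peak is called reproducible if it passed the filter the authors set on the irreproducible discovery rate (IDR), and its summit is the position of its highest signal. A peak was taken when its summit lay within 250 bp of an annotated transcript start and every start within 500 bp of the summit was on the same strand. At such one-strand promoters the upstream and the downstream side are unambiguous. The rule selected 515 of the 2942 reproducible peaks and 515 of the 1089 whose summit lay within 250 bp of any start. The other 574 lay near starts of both strands. The 515 peaks belonged to 498 different start sites of 481 genes. Among the reproducible peaks the rule used position alone and not the side of the start. Peak strength entered through the filter, as the reproducible peaks are those of highest signal in the pooled candidate list.

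The peaks came from chromatin immunoprecipitation and sequencing (ChIP-seq) with an antibody to GFP in whole embryos of mixed sex, collected from 0 to 24 h. The animals belonged to a transgenic strain, Suvar2-10-GFP, which stably expressed Su(var)2-10 carrying eGFP at its C-terminus from an insertion. There was 1 group of 2 biological replicates, labelled 2 and 3, with no second genotype, stage or tag. Chromatin was sonicated to 200 to 800 bp. A whole embryo of this age range mixes all tissues and stages, so a peak may come from any fraction of the cells. No read counts were used here, so the sequencing depth is unknown, and intervals on shares cover counting error only.

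Su(var)2-10 is the fly member of the PIAS family of SUMO E3 ligases, proteins that help attach the small protein SUMO to their targets. Its gene was found through mutations that weaken heterochromatic silencing. Many substrates of SUMO ligases are chromatin proteins and transcription factors, so such a ligase can be found at promoters and in heterochromatin. The DNA just before a start site carries the core promoter, where the transcription machinery assembles, and further upstream the sites that regulatory proteins bind.

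Summits at these promoters mostly lay 100 to 250 bp before the start, in sequence richer in A and T than the DNA at the start itself. The 250 bases before the start are shown for 4 of the strongest peaks, to let the position of the summit be read against the sequence, with the 21 bases centred on the summit in capitals. Each runs 5′ to 3′ on the strand of the gene and ends at the base before the start. All sequences are from the RefSeq Release 6 genome (dm6). The regions are chr3R:17700491-17700740 on the plus strand for lncRNA:CR46036, chr3R:23669660-23669909 on the minus strand for CG31145, chrX:15867895-15868144 on the plus strand for Gapdh2 and chrX:1275285-1275534 on the minus strand for Atf3. They were chosen by signal among promoters whose 250 bases held no annotated exon, but not over all chromosome arms. The stronger peaks at lncRNA:CR44339 (1288) and Tina-1 (1128), for example, are not shown. All 4 have their summit upstream, within the bases printed. The stronger peak at lncRNA:CR31840 (1027), with its summit downstream, is not among them. Its sequence is printed further below and has no AT-rich far stretch.
lncRNA:CR46036: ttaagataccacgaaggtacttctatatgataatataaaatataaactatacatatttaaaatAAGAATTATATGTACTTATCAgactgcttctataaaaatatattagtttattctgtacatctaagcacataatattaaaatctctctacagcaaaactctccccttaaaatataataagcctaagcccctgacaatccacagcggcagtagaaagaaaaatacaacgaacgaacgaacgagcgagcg
CG31145: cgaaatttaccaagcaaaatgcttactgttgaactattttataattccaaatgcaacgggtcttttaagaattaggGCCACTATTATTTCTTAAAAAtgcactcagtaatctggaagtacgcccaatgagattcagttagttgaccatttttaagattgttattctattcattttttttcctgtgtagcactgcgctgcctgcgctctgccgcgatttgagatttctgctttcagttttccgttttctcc
Gapdh2: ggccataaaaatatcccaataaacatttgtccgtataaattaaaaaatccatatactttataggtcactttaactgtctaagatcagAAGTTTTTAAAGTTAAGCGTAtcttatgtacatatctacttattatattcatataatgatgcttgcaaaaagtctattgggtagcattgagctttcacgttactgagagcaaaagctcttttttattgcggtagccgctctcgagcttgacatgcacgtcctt
Atf3: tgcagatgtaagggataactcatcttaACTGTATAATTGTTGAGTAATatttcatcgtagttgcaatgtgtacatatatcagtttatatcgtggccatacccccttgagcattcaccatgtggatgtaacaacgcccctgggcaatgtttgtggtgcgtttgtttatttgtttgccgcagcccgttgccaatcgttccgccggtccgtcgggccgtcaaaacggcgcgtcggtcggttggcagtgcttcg
At lncRNA:CR46036 the GC content of successive 50-base blocks, from the farthest to the nearest to the start, was 22, 20, 22, 40 and 50%. At Gapdh2 it was 28, 26, 24, 40 and 50%, and at Atf3 30, 36, 52, 54 and 70%. In these sequences the capitals fall in the AT-rich stretch and not in the GC-richer block next to the start. At CG31145 the blocks were 28, 34, 40, 36 and 48%, so the step was smaller there.

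Most of the summits lay upstream of the start, and more often than at weaker candidate peaks of the same kind. Of the 515 summits, 433 were upstream of the nearest start (84.1%, 95% Wilson interval 80.7 to 87.0). The comparison group was the 2180 peaks of the pooled candidate list that met the same position rule but did not pass the filter. Of these, 1295 were upstream (59.4%, interval 57.3 to 61.5). By its deposited description the candidate list holds background as well as peaks. In this group the deposited q-values reached 0.778 and the median signal was 52.3, so part of it may not be binding. The odds of an upstream position were 3.61 times higher at reproducible peaks (95% interval 2.81 to 4.64, two-sided Fisher's exact p = 4.05e-28). The reproducible peaks are the peaks of highest signal in the pooled list, so this compares higher with lower pooled signal. Against the 341 peaks next below the limit in signal, of which 73.0% were upstream, the odds ratio was 1.95 (p = 1.26e-04), and with summits within 100 bp of a start it was 1.53 (65.7 against 55.5%, p = 0.0308), both by two-sided Fisher's exact test. Neighbouring peaks can overlap: 46 of the 515 overlapped another of them, and 88 overlapped a reproducible peak outside the set. Overlapping peaks were also reduced to the strongest of each group before the position rule was applied, separately among passing and other peaks. This left 444 and 1716 peaks at one-strand promoters, with an odds ratio of 4.09.

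The distance to the start was as uneven as the side. The median summit lay at -145 bp, where negative means upstream, with quartiles at -196.5 and -70 bp, against a median of -43 bp among the peaks that did not pass. By 50 bp bin from -250 bp to the start, the reproducible peaks numbered 119, 127, 99, 65 and 23. From the start to +250 bp they numbered 26, 20, 12, 9 and 15. The bin just before the start was thus nearly as sparse as the bins after it. The 250 bp limit cut through the upstream group: with the rule widened to 500 bp, the bins from -300 to -251 and from -350 to -301 bp held 90 reproducible peaks each, and the bin from -500 to -451 bp held 40. Peaks at promoters with starts of both strands were upstream of their nearest start in 84.2% of cases but closer to it, with a median of -104 bp. The difference was not tested. A summit between diverging starts is always upstream of the nearest one, and the gap between them limits its distance. The values of the 2 classes are therefore not directly comparable.

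**Figure D1:**
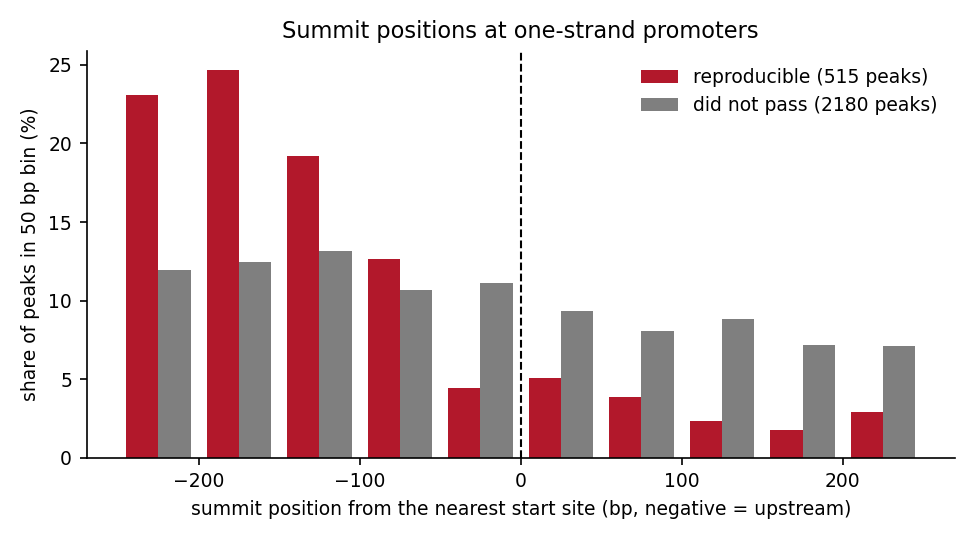
Share of peaks (%) by position of the summit from the nearest start (bp, negative is upstream) in 50 bp bins, for the 515 reproducible peaks (red) and the 2180 peaks that did not pass (grey); the dashed line is the start. The red bars are highest from -250 to -101 bp and low downstream, while the grey bars fall more gently, from 13.2% at -150 to -101 bp to 7.11% in the last bin.

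Several starts of the same strand can make the side uncertain, so the positions were also read against all starts within 500 bp. Of the 515 summits, 399 lay upstream of every such start (77.5%), 64 between starts (12.4%) and 52 downstream of all (10.1%). At the 378 summits with a single start within 500 bp, 335 were upstream (88.6%, interval 85.0 to 91.4). The odds ratio against candidate peaks that did not pass was 5.10 at single starts (two-sided Fisher's exact p = 6.24e-29) and 2.99 when a summit had to lie upstream of every start (p = 3.35e-24); both readings were added after the data had been seen.

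The upstream share went with peak strength, here the authors' own signal value, which has no fixed unit and is used only within a list. Over the 515 peaks it ran from 128.9 to 1288, with a median of 203.7. Split into 4 equal groups by signal, the upstream share was 90.7% in the strongest (signal from 315.6), 86.0% in the second, 89.9% in the third and 69.5% in the weakest (128.9 to 156.1). The median summit positions were -169, -140, -144 and -100.5 bp in the same order. The lower share thus appeared in the weakest group and not in the middle of the range. Among peaks that did not pass, the strongest of 4 equal groups (72.7 to 128.8) was upstream in 69.5% as well, and the other groups in 59.6, 54.1 and 54.3%. The weakest passing group and the strongest group that did not pass thus had shares inside each other's 95% intervals (61.1 to 76.8 and 65.6 to 73.3). Median signal was 208.2 at the 433 upstream summits and 163.6 at the other 82.

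**Figure D2:**
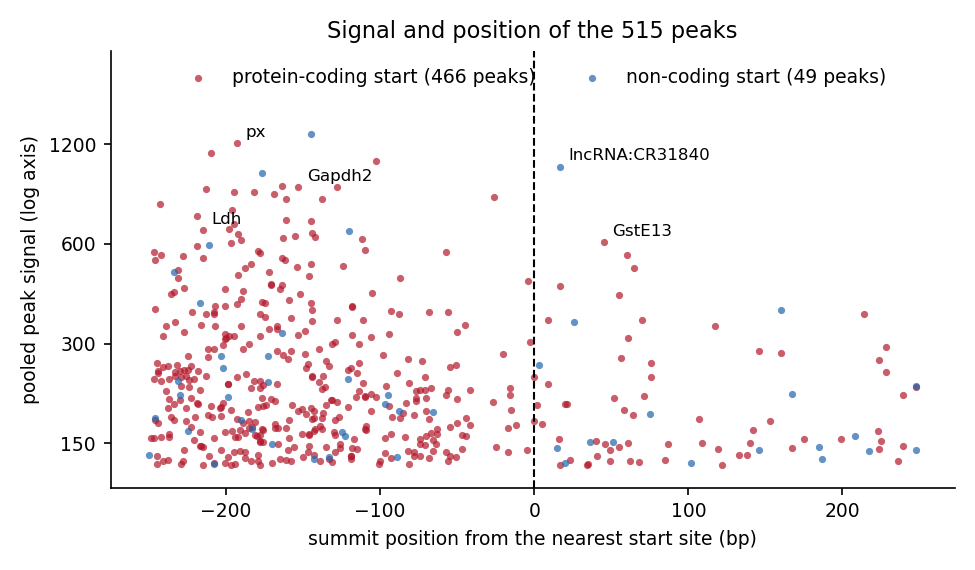
Pooled peak signal (authors' score, log axis) against the position of the summit from the nearest start (bp) for the 515 peaks, coloured by the kind of gene at the start; the dashed line is the start. The strongest downstream points are lncRNA:CR31840 (1027) and GstE13 (607), and GstE13 is weaker than each of the 20 strongest peaks of the set.

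The strongest peak of the set lay upstream of a non-coding gene, lncRNA:CR44339, with a signal of 1288 and its summit at -145 bp. It ranked 5 in the list of replicate 2 and 6 in that of replicate 3, with signals of 658.3 and 658.6 there. The second was at px (1208, summit at -193 bp), which encodes plexus, a nuclear protein needed for wing vein patterning, and ranked 9 and 7. The next were at Tina-1 (1128, -210 bp, ranks 10 and 10) and CG14100 (1069, -103 bp, ranks 7 and 22). All of these 4 ranked 22 or better in both replicate lists and were upstream in both. The promoters of lncRNA:CR46036 (980), CG31145 (896.5), Gapdh2 (890.9) and Atf3 (876.9), whose sequences are printed above, and Fkbp14 (889.8), an endoplasmic reticulum prolyl isomerase gene, had summits from -213 to -128 bp.

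Further down the 20 strongest came genes of signalling, transport, metabolism and RNA binding. The gene gish, a casein kinase 1 family member, had a signal of 862.6 at -182 bp, and RapGAP1, which encodes an activator of GTP hydrolysis by Rap1, 861.8 at -195 bp. Signals were 847.1 at CG1635, 834.3 at Ugalt, a UDP-galactose transporter gene, and 820.7 at mRpL41, a mitochondrial ribosomal protein gene. The transcriptional regulator gene sbb had 818.7 and aay, the phosphoserine phosphatase gene of serine synthesis, 794.4. Glyp, the glycogen phosphorylase gene, had 761.5, msi, which encodes the RNA-binding protein Musashi, 728.6, and Eno, the enolase gene of glycolysis, 708.6. Among the 20, the summit of lncRNA:CR31840 alone was downstream, and that of Ugalt at -26 bp was the closest upstream. The replicate summits for Ugalt lay at -18 and -43 bp, with ranks of 22 and 58.

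Downstream summits made up 82 of the set and lay mostly in transcribed leader sequence: 52 in a 5′ UTR, 16 in an exon of a non-coding transcript and 14 in an intron. The strongest, at lncRNA:CR31840, had its summit at +17 bp and a signal of 1027, with summits at +9 and +17 bp and rank 14 in both replicate lists. GstE13, a glutathione S-transferase gene, had its summit at +45 bp (607.3) and at +78 and +50 bp in the replicates. This peak, 2R from 9121902 to 9122437 on dm6, sits next to the gene of the tagged protein: its summit was 170 bp past the annotated end of Su(var)2-10, which is on the same strand. Whether the tagged insertion bears on the signal there was not tested. PNPase, the mitochondrial polynucleotide phosphorylase gene, had its summit at +60 bp (557.2), CG9399 at +65 bp (507.7) and Eip75B, an ecdysone-induced nuclear receptor gene, at +17 bp (448.7). At GstE13, PNPase and CG9399 the summit lay between starts of the same strand, upstream of at least 1 of them, while at lncRNA:CR31840 and Eip75B it lay downstream of the single start.

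Read against gene models, 242 of the 515 summits were intergenic (47.0%), 166 intronic (32.2%), 71 in a 5′ UTR (13.8%), 25 in an exon of a non-coding transcript, 10 in a 3′ UTR and 1 in coding sequence. The single coding summit was that before AlaRS, the alanyl-tRNA synthetase gene, inside the neighbouring gene CG13392, with a signal of 137.6. Among peaks that did not pass, 155 of 2180 were in coding sequence (7.11%). At upstream intronic summits the promoter is an internal one or lies in another gene, as at px, gish and RapGAP1, whose summits were in introns of their own longer transcripts, and at lncRNA:CR46036, in an intron of osa. The starts belonged to protein-coding genes in 466 cases, with 402 summits upstream, and to non-coding RNA genes in 46, with 29 upstream. A tRNA gene, a snoRNA gene and a pseudogene had 1 each. By chromosome arm, 121 peaks were on 3R, 103 each on 2L and 2R, 91 on 3L, 88 on X and 9 on chromosome 4, where PlexA, a semaphorin receptor gene (479.4, -146 bp), and RpS3A (285.0) were the strongest.

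An upstream neighbour transcribed in the same direction was somewhat less common than at weaker peaks, a difference past the threshold in 7 of 12 alternatives. The end of a same-strand gene lay within 500 bp upstream of the start at 91 of 515 peaks (17.7%, interval 14.6 to 21.2) and at 480 of 2180 that did not pass (22.0%). The odds ratio was 0.760 (95% interval 0.593 to 0.974, two-sided Fisher's exact p = 0.0309). Against the candidate peaks next below the limit in signal alone, it was 0.929 (Fisher's exact p = 0.717).

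Most of the summits had a summit near them in both replicate lists. A replicate summit lay within 100 bp of the pooled summit for 480 of the 515 peaks in replicate 2 and for 492 in replicate 3. For 460 it did so in both (89.3%, interval 86.4 to 91.7), and for 3, at CG5004, CG8788 and Sox14, in neither. Median distances were 22 and 8 bp. Of the matched summits, 84.6% were upstream in replicate 2 (interval 81.1 to 87.5) and 83.3% in replicate 3 (79.8 to 86.4), with medians of -146 and -145 bp. Of the 460 peaks matched in both, 382 were upstream in both lists, 66 downstream in both and 12 on different sides. The replicate lists are part of the pooled one, so these are not independent repeats of the pooled result. A match had to lie within 100 bp of the pooled summit, so its position and side follow largely from the matching. The peaks had also passed a filter on agreement between replicates. The same shares over all 2942 reproducible peaks were not computed.

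Peak strength was set side by side in the same way. In each replicate list the peak with the nearest summit was taken, which need not be the strongest peak nearby. The values below thus hold differences in matching as well as differences between replicates. Across the 460 peaks the replicate signals had a Spearman's rho of 0.65, a description across peaks that share the libraries. Of the 515, 400 were matched by a peak among the best 2942 of replicate 2, 418 among those of replicate 3 and 324 in both (62.9%). For 21 neither replicate ranked the matched peak that high. Hex-A, a hexokinase gene, was an uneven case by this match, with a pooled signal of 473.7. Its matched peak had a signal of 53.3 and rank 3939 in replicate 2 against 225.9 and rank 230 in replicate 3. Whether a stronger peak of replicate 2 lay nearby was not tested.

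**Figure D3:**
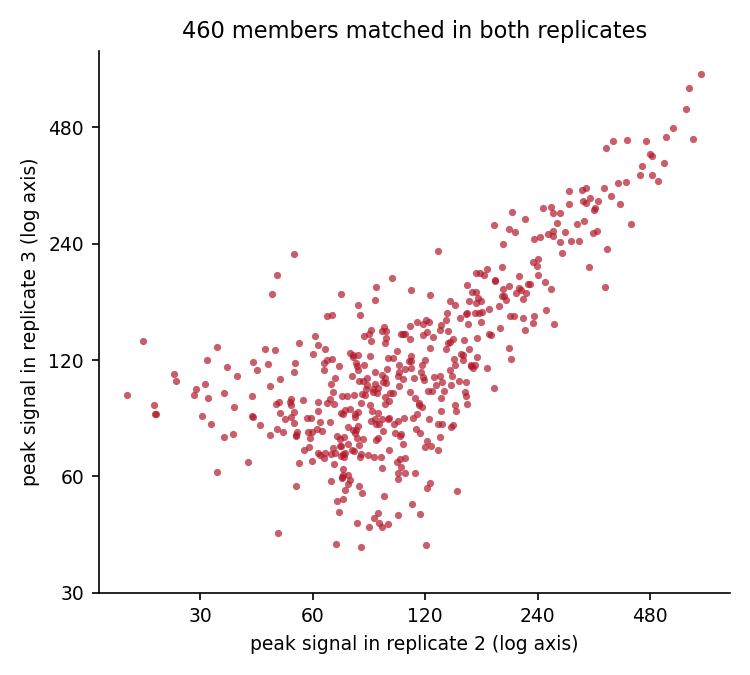
Signal in replicate 2 against signal in replicate 3 (authors' scores, log axes) for the 460 peaks with a summit within 100 bp in both lists, each point a peak. Points lie close together among the strongest peaks and spread out among the weaker ones, and the Spearman's rho is 0.65. Each replicate signal is that of the peak with the nearest summit.

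The DNA before these starts was AT-rich at the place where the summits lay. In the 200 bp around the summit the median GC content was 34.0% (quartiles 30.0 and 39.75), against 39.5% at peaks that did not pass. Within the set it was 33.0% at upstream and 40.5% at downstream summits. Aligned on the 498 starts instead, mean GC content fell to 31.0% ± 11.1 (SD over starts) from -200 to -151 bp and was 46.4% ± 10.7 from -50 to -1 bp. The same bins had 36.8% ± 12.5 and 43.4% ± 11.1 at 1935 starts with candidate peaks that did not pass, and 36.4% and 43.2% at all 9788 one-strand protein-coding starts. The low point thus lay in the bin with the most summits, while from -500 to -451 bp the means were 39.5, 38.8 and 38.8%. These means are descriptions over starts and carry no test.

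A set of 18 short motifs was searched as exact letters on both strands in the 200 bp around each summit. They were the DNA replication-related element TATCGATA, its inner core CGATA, the promoter motifs GGTCACAC, GGTATTTT and CATCNCTA, the E-boxes CAGCTG and CACGTG, the GAGA factor motif GAGAGAG and the repeat CACACACA. The others were the Zelda motif CAGGTAG, the CRE TGACGTCA, the AP-1 motif TGANTCA, the STAT motif TTCNNNGAA, the GATA motif AGATAAG, the TATA box TATAAA, the initiator core TCAGT, the run CTTTTC and the run AAAAAAAA. N stands for any base, and each match of TATCGATA also counts as one of CGATA. A match describes the letters and is not evidence of a bound protein.

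TATAAA passed the test among these 18. It was present at 202 of 515 summits (39.2%, interval 35.1 to 43.5) and at 638 of 2180 that did not pass (29.3%), an odds ratio of 1.56 (95% interval 1.28 to 1.90, p = 3.16e-04 by two-sided Fisher's exact test with adjustment over 18 motifs). It was also in the 200 bases before 36.6% of all 9788 one-strand protein-coding starts, taken as the most upstream start of each gene. That window differs from the one around the summit. In the 200 bases before the start, TATAAA was at 34.5% of the 498 starts and at 32.35% of the 1935 starts with other candidate peaks. The odds ratio there was 1.10 (Fisher's exact p = 0.817 after adjustment), in a window added after seeing the data. The difference was not past the threshold among upstream summits alone (42.7 against 34.8%, odds ratio 1.40, Fisher's exact p = 0.0603 after adjustment), a reading chosen once the data were seen, or against the next peaks by signal (1.24, adjusted p = 0.475). GC content was also lower around these summits, and its part in the TATAAA share was not tested. CAGGTAG was at 0 of 515 summits, which allows a share of up to 0.583%, and at 21 of 2180 (unadjusted Fisher's exact p = 0.0219, adjusted 0.197). GGTCACAC was at 3 and 39 (adjusted Fisher's exact p = 0.284).

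The TATAAA matches were most frequent where the summits were. By distance from the start, 92 of the 498 starts had one from -200 to -151 bp (18.5%). The shares were 11.3% at starts with other candidate peaks and 11.2% at all one-strand protein-coding starts. From -50 to -1 bp the order turned, with 6.63, 9.61 and 14.8%. On the strand of the gene with its first base from -40 to -20 bp, the place of a working TATA box, TATAAA was at 18 of 498 starts (3.61%, interval 2.30 to 5.64). Starts with other candidate peaks had 4.60% (odds ratio 0.778, 95% interval 0.464 to 1.30, two-sided Fisher's exact p = 0.392). All one-strand protein-coding starts had 9.11%. They hold the most upstream start of each gene, whereas the 498 also include non-coding and internal starts, so the kinds of start differ. Counted from the summit, the share was highest from -50 to -1 bp (83 of 515, 16.1%) and from 0 to 49 bp (72, 14.0%), against 8.85 and 8.03% at peaks that did not pass.

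The strongest peaks with TATAAA in the summit window were at Tina-1, lncRNA:CR31840, lncRNA:CR46036, CG31145, Gapdh2, Fkbp14, Atf3 and RapGAP1. Those of lncRNA:CR31840 and RapGAP1 are shown with the match in capitals, as the sequences of lncRNA:CR46036, CG31145, Gapdh2 and Atf3 are printed above and those of Tina-1 and Fkbp14 are not shown. The region of lncRNA:CR31840 is chr2L:14024100-14024349 on the minus strand, and that of RapGAP1 chr2L:7530575-7530824 on the minus strand, both 5′ to 3′ on the strand of the gene and ending at the base before the start. Capitals mark the match, which in lncRNA:CR31840 is on the opposite strand and so reads as the reverse complement.
lncRNA:CR31840: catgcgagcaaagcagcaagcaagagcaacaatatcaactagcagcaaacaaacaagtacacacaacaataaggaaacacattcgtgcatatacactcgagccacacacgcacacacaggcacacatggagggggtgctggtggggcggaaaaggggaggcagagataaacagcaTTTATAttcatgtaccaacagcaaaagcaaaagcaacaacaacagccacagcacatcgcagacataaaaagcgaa
RapGAP1: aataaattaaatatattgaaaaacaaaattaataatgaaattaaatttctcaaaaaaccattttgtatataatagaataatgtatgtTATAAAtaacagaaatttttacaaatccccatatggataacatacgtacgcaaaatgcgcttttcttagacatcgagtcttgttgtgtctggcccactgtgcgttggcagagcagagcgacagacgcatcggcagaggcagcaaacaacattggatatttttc
The first base in capitals is at -75 bp in lncRNA:CR31840 and at -163 bp in RapGAP1. The GC content of the 50-base blocks of RapGAP1 was 8, 18, 34, 54 and 48%. That of lncRNA:CR31840, whose summit is downstream, was 46, 36, 68, 38 and 44%, with no AT-rich far stretch.

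GAGAGAG did not pass the test at the summits, but was more common than at other candidate peaks nearer to the start, and also in bins farther out. At the summits it was in 5.44 against 5.73% of windows (odds ratio 0.945, adjusted Fisher's exact p = 0.918). That ratio turned to 1.35 without replicate 2 and 1.68 without replicate 3, neither past the threshold, and to 1.83 in 300 bp windows (adjusted Fisher's exact p = 0.00222). In the 200 bases before the start, a window added after seeing the data, it was at 66 of 498 starts (13.3%) against 145 of 1935 (7.49%). Among all one-strand protein-coding starts the share was 5.66%. The odds ratio against the 1935 starts was 1.89 (95% interval 1.38 to 2.57, p = 0.00198 by two-sided Fisher's exact test with adjustment over 18 motifs). It was 1.53 with protein-coding starts alone (adjusted Fisher's exact p = 0.174), 1.65 with 1 summit per overlapping group (0.0942) and 1.78 against the next peaks by signal (0.273), none of them past the threshold. Its share was highest from -100 to -51 bp, at 37 starts (7.43%, against 3.00% of starts with other candidate peaks), and from -200 to -151 bp, the 50 bp bin with the most summits, it was at 5 (1.00%). The higher share was not confined to the bases near the start. From -500 to -451 bp it was 3.8 against 1.4%, and from 50 to 99 bp after the start 2.01 against 0.672%. From -250 to -201 bp it was lower, at 1.2 against 1.55%. Single bins were not tested.

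An example of GAGAGAG between the summit and the start is msi, chr3R:25515868-25516117 on the plus strand. It was chosen after seeing the values and runs 5′ to 3′ on the strand of the gene up to the base before the start. Capitals mark the match.
msi: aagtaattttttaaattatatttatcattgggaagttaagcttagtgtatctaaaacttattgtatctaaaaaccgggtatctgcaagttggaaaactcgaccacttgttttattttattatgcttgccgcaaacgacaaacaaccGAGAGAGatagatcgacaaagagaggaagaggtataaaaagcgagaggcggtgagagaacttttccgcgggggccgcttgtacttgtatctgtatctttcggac
The first base in capitals is at -104 bp, with the summit at -219 bp. The 50-base blocks had a GC content of 20, 36, 38, 46 and 52%.

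**Figure D4:**
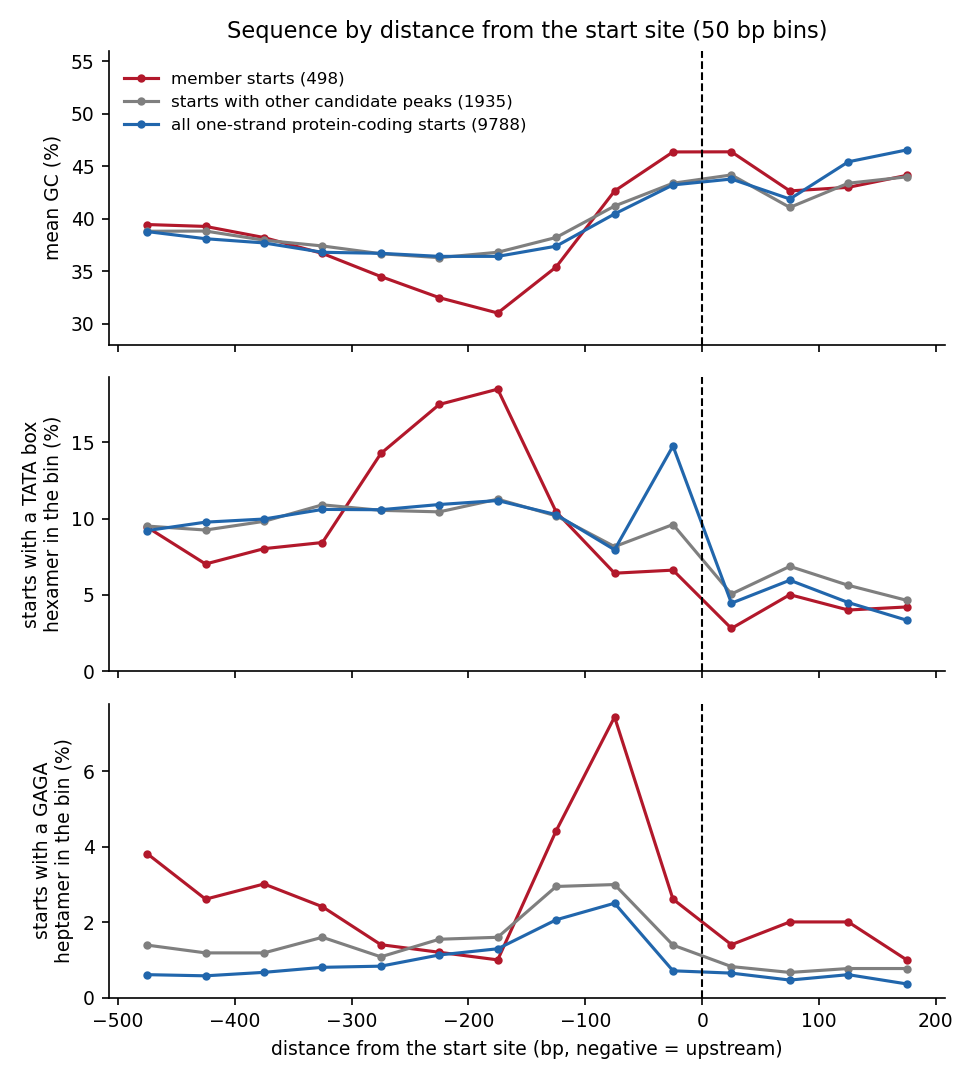
Mean GC content (%), share of starts with TATAAA (%) and share with GAGAGAG (%) on either strand in 50 bp bins by distance from the start (bp), at the 498 starts with a reproducible peak (red), 1935 starts with other candidate peaks (grey) and all 9788 one-strand protein-coding starts (blue). In red, GC content is lowest (31.0%) and TATAAA most frequent (18.5%) from -200 to -151 bp, and GAGAGAG most frequent (7.43%) from -100 to -51 bp.

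Among protein-coding genes, those of glycolysis and of the cytoplasmic ribosome often had such a peak. Of all 10477 protein-coding genes with a one-strand start, 446 did (4.26%). Of 11 genes of glycolysis and its lactate branch, 5 did (45.5%, interval 21.3 to 72.0), which were Gapdh2 (890.9), Eno (708.6), Ldh (659.8), Hex-A (473.7) and PyK (191.8). Of 54 cytoplasmic ribosomal protein genes with a one-strand start, 17 did (31.5%, interval 20.7 to 44.7). The glycolytic peaks were the stronger, with a median signal of 659.8 against 188.3. No list was tested.

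At Gapdh2, the glyceraldehyde phosphate dehydrogenase gene, the replicate signals were 485.1 and 404.9, with summits at -138 and -153 bp. At Eno they were 377.7 and 319.2, with summits at -203 and -174 bp. At Ldh, the lactate dehydrogenase gene, they were 323.6 and 333.8, with summits at -242 and -223 bp. All 3 genes were among the best 110 peaks of both replicate lists. PyK, the pyruvate kinase gene, had lower ranks (2791 and 1071) and its summits at -249 and -238 bp. Hex-A, whose matched signal was uneven between replicates, had summits at -51 and -87 bp.

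The ribosomal protein peaks were weaker and stood on either side of the start. The strongest were at RpS10b (312.3, -200 bp), RpS27A (302.3, -129 bp) and RpS3A (285.0, -167 bp). RpS10b had a second peak at +2 bp (195.6). At RpS4 the summit lay at +20 bp (197.2) and at RpL27 at +34 bp (129.2). Translation factor genes had a peak in 6 of 38 cases (15.8%), led by eIF3c (237.4), eEF5 (227.3) and eIF4A (217.8), whose summits lay closer to the start, at -71, -81 and -71 bp. The gene for eIF4A, an RNA helicase of initiation, had a second peak at an internal start (140.9).

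Heat-shock and chaperone genes had 4 of 23 (17.4%, interval 6.98 to 37.1): Hsp27 (349.9, -144 bp), Hsp83 (262.5, +76 bp), Hsp26 (211.8, -106 bp) and Gp93 (174.1, -181 bp). The replicate summits of Hsp27 lay at -136 and -144 bp and those of Hsp83 at +73 and +76 bp, so the side did not differ between replicates. Among genes of the SUMO pathway itself, 1 of 5 had a peak, which was Sumo, the gene of the modifier, at -244 bp (244.8; replicate summits at -246 and -236 bp). Chromatin regulator genes had 3 of 29 (10.3%), at the corepressor gene gro (452.1, -164 bp), at Trl, which encodes GAGA factor (280.7, +160 bp), and at row (276.3, -163 bp). Developmental signalling genes had 3 of 32 (9.38%), at spi, which encodes a ligand of the EGF receptor (633.2, -155 bp), at neur, a ubiquitin ligase gene of the Notch pathway (451.9, -171 bp), and at aos, which encodes a secreted inhibitor of EGF receptor signalling (433.6, -189 bp). The intervals of the SUMO, chromatin and signalling lists all reached below the 4.26% of all genes.

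In 4 further lists a single gene had such a peak, and their intervals all included the 4.26%. They were the mitochondrial ribosomal protein genes (mRpL41, 1 of 20, 5.0%, interval 0.888 to 23.6) and the Mediator subunits (MED21, 165.4, 1 of 11, 9.09%, 1.62 to 37.7). The others were the aminoacyl-tRNA synthetases (AlaRS, 1 of 13, 7.69%, 1.37 to 33.3) and the oxidative phosphorylation genes (UQCR-11, 129.6, 1 of 53, 1.89%, 0.334 to 9.94). Without replicate 3 the last 3 of these lists had none. None was found at 24 proteasome, 25 cell cycle and DNA replication, 32 homeotic and segmentation and 117 cuticle protein genes, nor at any chemoreceptor gene. A count of 0 still allows shares of up to 12.5% for the proteasome list and 12% for the cell cycle list (3 counts of the total). For the homeotic and segmentation list the limit was 9.375%. These 3 lists cannot be told from the background share at this size. The limits were 2.56% for the cuticle proteins and 1.46% for the chemoreceptors.

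**Figure D5:**
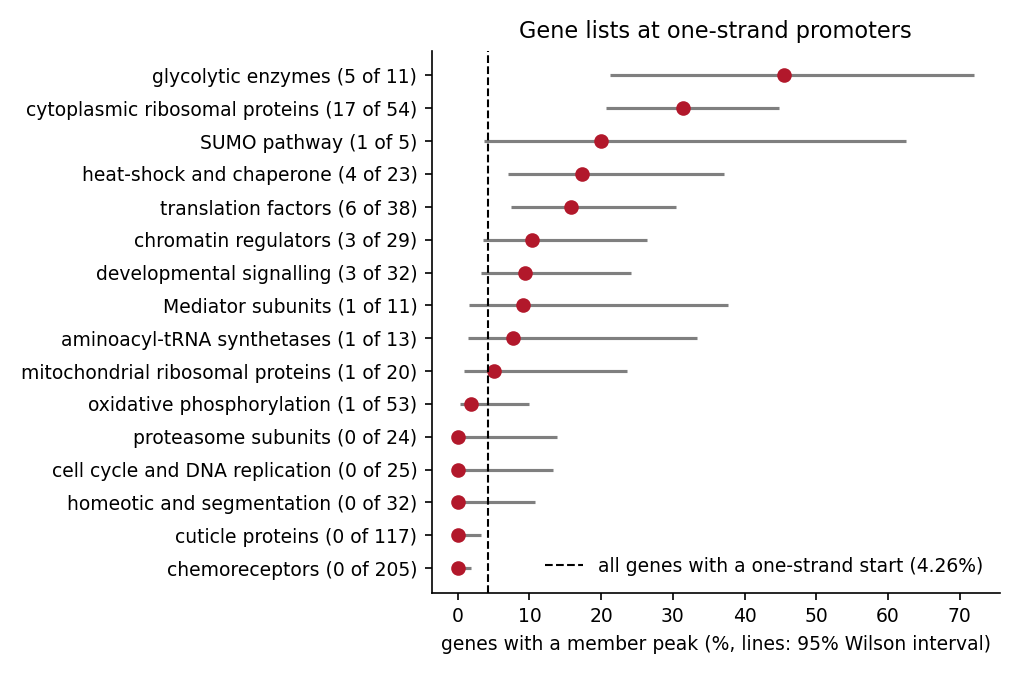
Share of genes in each of 16 lists with a reproducible peak at a one-strand promoter (%, points) with 95% Wilson intervals (lines), of the list genes with a one-strand start; the dashed line is the 4.26% of all such protein-coding genes. Glycolytic enzymes (45.5%) and cytoplasmic ribosomal proteins (31.5%) lie farthest above the line.

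At the limits of the rule, asRNA:CR45999 (-250 bp, 138.5), Ptp99A (-249 bp, 156.1) and lncRNA:CR45325 (+248 bp, 223.5) were the farthest summits inside, and nkd (-251 bp, 204.8), MFS18 (-251 bp, 199.0) and FASN1 (-252 bp, 128.9) the nearest outside. At the limit of the filter, the weakest peaks inside were at IntS4 (129.0) and Iml1 (128.9), and the strongest that did not pass were at CG2961 and CG2059, both with 128.8. Peaks on either side of these limits were thus alike in position or in signal.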

How the data were processed

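Peak lists on dm6 were used for replicates 2 and 3, for the pooled replicates and for peaks past an IDR threshold, each called against a control per the deposited file notes. Aligner, peak caller and threshold were not given in the sources used here. Each peak's signal is a score deposited by the authors. Their deposited −log10 q gave the q-value, at most 0.0260 over the 515 peaks, and their summit offset the summit. Lists on dm3 were not used here. Starts and gene models came from Ensembl release 115, transposable elements excluded, and sequence from the RefSeq Release 6 assembly, whose arm lengths were compared with peak ends.

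Positions, GC content, exact motif matches and 16 gene lists were computed with scipy 1.17.1, pandas 2.3.3 and numpy 2.4.6 under Python 3.11.15. Passing peaks were compared with pooled-list peaks that did not pass, under the same rule, by two-sided Fisher's exact tests (threshold 0.05, Benjamini-Hochberg adjustment over 18 motifs), which were tested on simulated data. Intervals are 95% Wilson (shares) or Woolf (odds ratios), and the limit for a count of 0 is 3 counts.

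Genes named were those at the 20 strongest peaks, the 5 strongest downstream, up to 3 per list, the strongest with a motif past the threshold outside 2R, the 3 strongest at non-coding genes and those at the limits. Further list genes, second peaks, unmatched peaks, neighbours and the GAGAGAG example were named after seeing values. The members and lists were chosen with earlier results of these data known, so none of the list counts, the glycolytic and ribosomal ones included, is independent support. All printed sequences were from arms other than 2R. The symbol Gei-17 found no match.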

Additional observations from a re-analysis of the deposited data

How the results depend on the processing

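The upstream excess kept its direction and its side of the threshold under all 12 alternatives tried, with odds ratios from 1.53 (summit within 100 bp, p = 0.0308) to 5.29; the best peaks of 1 replicate alone gave 2.89 without replicate 2 and 5.29 without replicate 3 (two-sided Fisher's exact tests). The same-strand neighbour ratio was no longer past the threshold at 0.851 (summit within 100 bp), 0.776 (protein-coding starts), 0.800 (1 summit per overlapping group), 0.929 (next peaks by signal) and 0.862 (gene end within 1000 bp), and ran from 0.711 to 0.736 without 1 replicate. The count of motifs past the threshold, 1 in the report, was 0 within 100 bp, against the next peaks by signal and among upstream summits, 2 within 500 bp and in 300 bp windows, 3 with a strand window of 300 bp, and 1 without either replicate. The TATAAA ratio turned to 0.992 within 100 bp. The GAGAGAG ratio at summits turned above 1, at 1.35 without replicate 2 and 1.68 without replicate 3. It was 1.15 within 100 bp, 1.18 within 500 bp, 1.83 in 300 bp windows and 1.89 in the 200 bases before the start. Why the ratio turned was not tested in any of these settings. The share of protein-coding genes with a peak was 6.74% within 500 bp of a start and 3.91 to 4.52% without 1 replicate. Matching in both replicates was 64.5% within 50 bp and 97.9% within 200 bp. The cell cycle list, at 0 of 25 in the report, had 4 genes within 500 bp and 3 without replicate 2; the aminoacyl-tRNA synthetase, oxidative phosphorylation and Mediator lists went from 1 gene each to 0 without replicate 3, and the Mediator list to 2 without replicate 2. No paired analysis was possible because the samples form 1 group. Read depth is unknown, no control lists were used here, and 2 replicates of 1 strain give no spread over strains or stages.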
